A study of Mus musculus with 4 samples.

Results

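The cytosolic ribosomal protein genes are described here by the accessible DNA at their ends. Members were all RefSeq protein-coding genes on chromosomes 1 to 19 of GRCm38 whose symbol is Rpl or Rps followed by a number, with a final letter allowed. Rps6k kinases, like-genes and pseudogenes were left out. This gave 69 genes of 20661 autosomal protein-coding genes, 29 for proteins of the small subunit (Rps) and 40 for proteins of the large subunit (Rpl). They lay on 18 of the 19 autosomes. Their median length was 3175 bp (range 982 to 11774 bp), against 17491 bp for all protein-coding genes. In 26 of the members the gene span also held small nucleolar RNA genes, 53 in all.

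Accessibility had been measured in mouse cells by ATAC-seq, which uses a transposase to tag DNA that is not covered by nucleosomes, with 1 library for each of 4 groups. The mouse embryonic fibroblasts (MEF) and the induced pluripotent stem cells (iPSC) carry the strain and transgene label A12 (Mbd3 flox/-). The embryonic stem cells (ESC) are v6.5, with no transgene named. The intermediate is labelled B6/129, with Rosa26-TdTomato from a B6 female parent and Col1a-OSKM from a 129 male parent. Its fibroblasts, which carry a Nanog-CreER reporter, had been given doxycycline, 4-hydroxytamoxifen and 0.5 µM of a JAK1 inhibitor, the first 2 from day 1 until day 9. TdTomato-positive cells were then sorted, with no MEF feeders, at the end of the OSKM step (Oct4, Sox2, Klf4 and Myc) of conversion to neural stem cells. Its title gives day 9 and its source field day 6. The labels do not say how many animals or cultures stand behind a library, and strain and cell state cannot be told apart except between MEF and iPSC.

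Ribosomal proteins assemble with ribosomal RNA into the small and large subunits that decode messenger RNA and form peptide bonds. Growing cells need all of them in matched amounts, so their genes are transcribed in nearly every cell type and are often used as a constitutive reference. Their promoters are typically rich in CpG, often lack a canonical TATA box and start transcription at a C within a run of pyrimidines. That start gives their messenger RNAs the terminal oligopyrimidine tract through which mTOR signalling controls their translation.

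The RefSeq promoter table on GRCm38.p6 held 50 of the 69 members. Among the 19 that it did not hold were Rpl17, Rpl21, Rpl23a, Rpl29, Rpl3, Rpl30, Rpl32, Rpl36, Rpl7, Rpl8, Rps14, Rps20, Rps27a and Rps29. Motifs were sought on both strands from 250 bases before to 50 bases after each listed start, in 300 bases in all. The ETS motif CCGGAAG was in 21 of the 50 member windows (42.0%, Wilson 95% interval 29.4 to 55.8%) and in 13.3% of 16456 gene windows. A pyrimidine start, taken as a C at the start base with pyrimidines at the 4 bases after it on the gene's strand, was in 12 members (24.0%, 14.3 to 37.4%) and in 2.70% of genes. These 12 were Rpl14, Rpl15, Rpl28, Rpl35, Rpl35a, Rpl38, Rps10, Rps15a, Rps18, Rps21, Rps27 and Rps6. Where a gene has several listed starts, a match at any of them was counted. The YY1 motif AAGATGG was in 9 members (18.0%) against 7.26% of genes, and the cyclic AMP response element TGACGTCA in 5 (10.0%) against 2.63%. For the Sp1 motif GGGCGG, the shares were 58.0% of members and 50.2% of genes. The E-box CACGTG was in 12.0% and 9.01%, and the 10-base NRF1 palindrome in 4.00% and 1.49%. No member had the TATA box TATAAA in the 40 bases before the start, on the gene's strand, and 0 of 50 has an upper Wilson bound of 7.13%, against 3.51% of genes. The ETS and YY1 motifs can share the bases AAG, and a pyrimidine start can run into the complement of the ETS motif; each match was counted. Median GC content of the member windows was 56.8%, against 56.7% for all genes, open or not. The median ratio of observed to expected CpG was 0.906 in members and 0.582 in all genes. Among genes with a peak within 1 kb of either end in MEF, medians were 60.7% and 0.737, against 56.7% and 0.903 for such members. In the other lists such genes also had a median GC of 60.7%. Set against these open genes, member GC was lower and the CpG ratio higher.

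The sequences of 7 members that the results below turn on run from 100 bases before the listed start through 20 bases that begin with the start base. They are RefSeq sequence on GRCm38.p6, written 5′ to 3′ on the gene's strand. Capitals mark CCGGAAG or the 5 bases of a pyrimidine start. Rpl15 (chr14:18270967-18271086, minus strand) and Rpl37 (chr15:5116513-5116632, plus strand) had the highest mean percentile over the 4 lists. Rpl35 (chr2:39005112-39005231, minus) ranked high in every library, and Rps10 (chr17:27635225-27635344, minus), with both motifs, ranked low in iPSC. Rpl35a (chr16:33056382-33056501, plus) ranked low in every library, Rpl11 (chr4:136053374-136053493, minus) had no iPSC peak, and Rps2 (chr17:24719963-24720082, plus) starts inside its gene record.
Rpl15: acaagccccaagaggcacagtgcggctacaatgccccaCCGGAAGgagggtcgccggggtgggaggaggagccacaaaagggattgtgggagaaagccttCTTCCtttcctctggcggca
Rpl37: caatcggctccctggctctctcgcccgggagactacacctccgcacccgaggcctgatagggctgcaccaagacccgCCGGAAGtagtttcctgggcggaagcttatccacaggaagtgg
Rpl35: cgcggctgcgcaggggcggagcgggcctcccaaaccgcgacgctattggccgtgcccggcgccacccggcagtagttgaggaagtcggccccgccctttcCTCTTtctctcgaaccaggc
Rps10: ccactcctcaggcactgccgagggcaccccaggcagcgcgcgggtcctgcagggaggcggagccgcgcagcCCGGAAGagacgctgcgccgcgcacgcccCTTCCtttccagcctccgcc
Rpl35a: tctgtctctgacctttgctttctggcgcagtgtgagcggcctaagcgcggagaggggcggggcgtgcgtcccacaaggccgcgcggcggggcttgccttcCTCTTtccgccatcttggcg
Rpl11: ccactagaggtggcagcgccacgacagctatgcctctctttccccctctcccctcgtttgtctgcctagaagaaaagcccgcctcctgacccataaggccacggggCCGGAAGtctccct
Rps2: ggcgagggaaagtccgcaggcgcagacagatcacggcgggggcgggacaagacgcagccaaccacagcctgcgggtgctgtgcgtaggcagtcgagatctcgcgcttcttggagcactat
At the starts shown, Rpl15, Rpl35, Rps10 and Rpl35a start with a C in a run of pyrimidines. Rpl35a has 3 listed starts, and its sequence is that of the start at base 33056482, not the first at base 33056453. Rpl15, Rpl37, Rps10 and Rpl11 hold CCGGAAG within these 120 bases, Rpl35 and Rps2 hold it elsewhere in the 300 bases, and Rpl35a does not hold it.

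The deposited lists hold 157212 MEF, 133235 intermediate, 132875 iPSC and 129533 ESC peaks on chromosomes 1 to 19 and X. Read totals are not in the lists, so depth is unknown, and heights are not scaled between lists. Each peak is therefore placed by its height percentile, its mid-rank among all peaks of its own list. A percentile describes position in 1 list, and a lower one does not measure less accessibility. With 1 library a group there is no test and no spread between replicates, and intervals cover counting error over genes only. Of 9 fibroblast marker genes, MEF had a peak at an end of 9, the intermediate of 4, iPSC of 5 and ESC of 7. Pluripotency marker genes had one in 0 of 10, 5, 10 and 8 in the same order, Pou5f1 and Esrrb in iPSC alone. Epithelial marker genes had one in 1 of 5 in MEF and in all 5 in the others, endothelial ones in 1, 0, 2 and 1 of 4, and myeloid ones in 2, 1, 1 and 1 of 4. The iPSC list stood apart in rank: across all genes its Spearman correlation of height percentile was 0.543 with MEF and 0.713 with ESC, against 0.757 between MEF and ESC.

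Nearly all ribosomal protein genes were open at an end in every cell population. An end peak, meaning a peak overlapping the 1 kb on either side of either gene end, was listed for 67 of 69 members in MEF (97.1%, Wilson 95% interval 90.03 to 99.2%), where 65.5% of all protein-coding genes had one. All 69 had one in the intermediate (100%, 94.7 to 100%), against 63.3% of genes. In iPSC it was 66 (95.7%, 88.0 to 98.5%) against 66.1%, and in ESC 68 (98.6%, 92.2 to 99.7%) against 68.1%. In all 4 libraries together 65 members had one (94.2%, 86.0 to 97.7%), against 54.8% of genes. The intervals of the members lay above the share of all genes in each library. Another protein-coding gene ended within 1 kb of 25 members (36.2%, against 25.6% of genes). Among the 44 members without such a neighbour, 43, 44, 42 and 44 had an end peak in MEF, intermediate, iPSC and ESC.

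The 4 members that lacked an end peak somewhere were Rps2, Rpl17, Rpl11 and Rpl8. Rps2, which encodes a small subunit protein near the entry of messenger RNA (chr17:24718121-24721927), had none in MEF, iPSC and ESC and 1 of height 26 in the intermediate (percentile 37.9). Its listed start lies 1942 bp inside the gene record, and a peak covered that start in all 4 lists, with heights of 141 (MEF), 114 (intermediate), 70 (iPSC) and 97 (ESC). Those peaks stood at percentiles 95.8, 91.9, 77.1 and 90.4, so Rps2 was open at its start in each library.

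Rpl17, a large subunit protein gene (chr18:74998978-75003381), had no end peak in MEF and end peaks of height 14 (intermediate), 12 (iPSC) and 45 (ESC). In each list a taller or equal peak lay between its ends, with heights of 48, 52, 44 and 45 in the usual order of MEF, intermediate, iPSC and ESC. The nearest MEF peak was 1093 bp from an end, just outside the 1 kb window, while the nearest peaks of the others came within 963 to 973 bp.

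Rpl11, whose protein joins Rpl5 and 5S ribosomal RNA in a particle that binds Mdm2 (chr4:136049354-136053393), had end peaks of height 160 in MEF, 96 in the intermediate and 101 in ESC. These stood at percentiles 96.8, 88.8 and 91.0. In iPSC the nearest listed peak was 17.4 kb from the gene. Rpl8, a large subunit protein gene (chr15:76904071-76906318), had heights of 50, 69 and 77 in MEF, intermediate and ESC, at percentiles 76.0, 81.0 and 86.0. The nearest iPSC peak to Rpl8 was 3.87 kb away. These were the only 2 of 67 members with an end peak in the other 3 lists that lacked one in iPSC (2.99%), and 3.05% of all such genes lacked one there. For MEF the count was 1 of 66 (Rpl17; 5.16% of genes), for the intermediate 0 of 65 (5.61%) and for ESC 0 of 65 (0.675%). The share lacking in iPSC was thus near that of all genes.

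**Figure D1:**
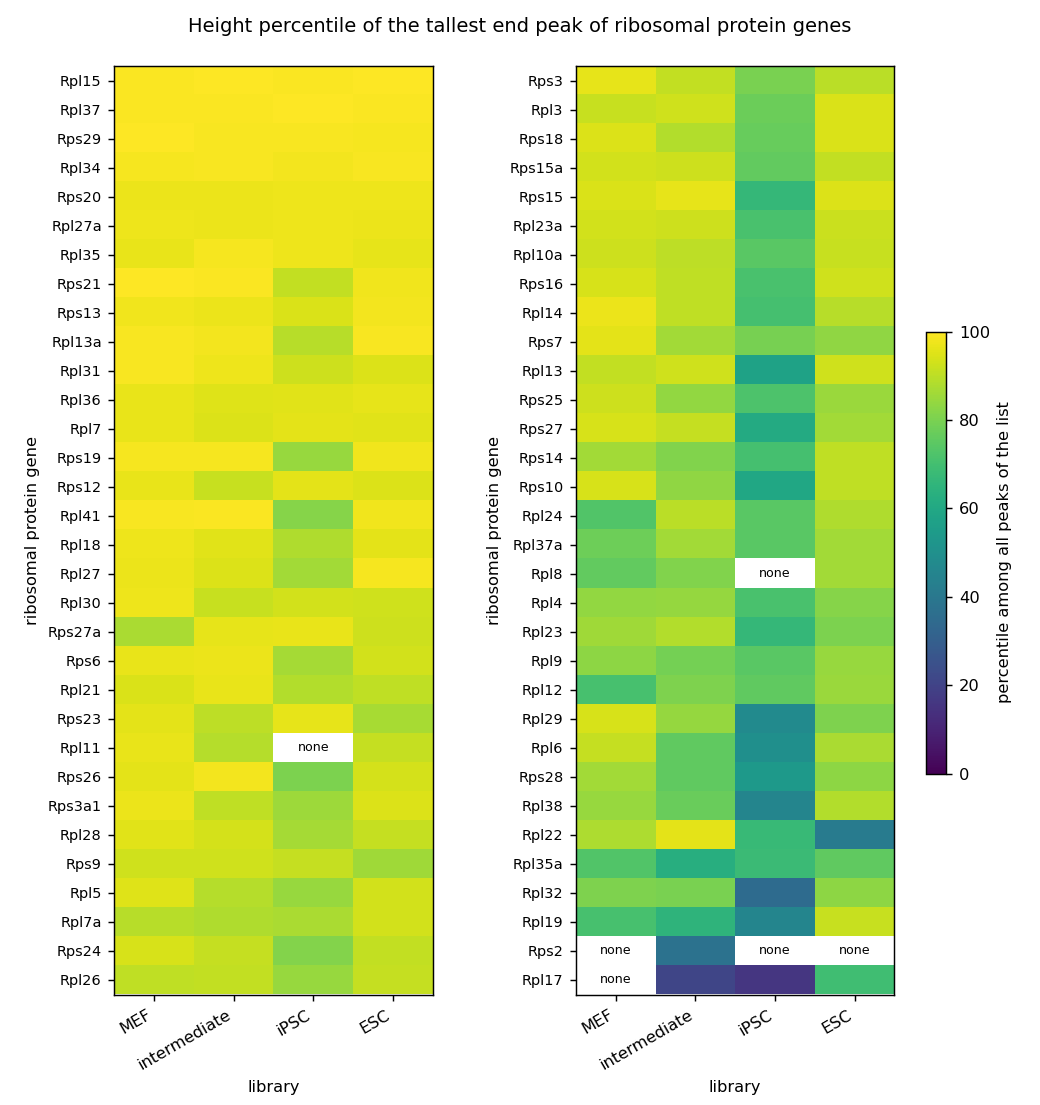
Height percentile of the tallest end peak of 64 of the 69 ribosomal protein genes (rows, in order of their mean over the libraries that have one) in the 4 libraries (columns), on a colour scale from 0 to 100. White cells have no end peak; the iPSC column is darker in most rows, and Rps2 and Rpl17 stand last.

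Member peaks stood high in 3 of the lists and lower in iPSC. The tallest end peak of a member had a median height of 121 (MEF), 110 (intermediate), 81 (iPSC) and 109 (ESC), on each list's own scale. The matching median percentiles were 94.4 (order-statistic 95% interval 93.3 to 96.5), 91.3 (89.8 to 94.6), 81.7 (74.3 to 86.5) and 92.2 (90.5 to 94.2). For all genes with an end peak the medians were 92.4, 88.4, 87.3 and 91.2. Members were thus 1.95 points above the genes in MEF, 2.87 above in the intermediate and 0.996 above in ESC, and their difference was -5.68 points in iPSC. The interval of the member median excluded the gene median in MEF, the intermediate and iPSC, and held it in ESC. Members above the gene median numbered 44 of 67 (MEF), 47 of 69 (intermediate), 23 of 66 (iPSC) and 39 of 68 (ESC). At the 50 members with a listed start, peaks within 1 kb of that start gave medians of 94.8, 90.7, 78.5 and 91.4, against 93.2, 89.4, 88.3 and 91.9 for all genes. Measured this way, the sign of the difference turned in ESC (-0.57 points), and the difference in iPSC was larger (-9.78). The differences in MEF (1.60, interval -0.25 to 3.33) and the intermediate (1.30, -0.38 to 3.24) had intervals that held the gene median, and at listed starts the interval excluded it in iPSC alone.

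High placement was common but not beyond that of other open genes in every list. The tallest end peak was in the top 10% of its list for 50 members in MEF (74.6%, against 57.1% of genes with an end peak). For the intermediate it was 41 (59.4%, against 45.4%), for iPSC 19 (28.8%, against 43.1%) and for ESC 45 (66.2%, against 55%). The peak was in the top 10% of all 4 lists for 16 of 65 members (24.6%), below the 32.9% of genes. The lower 50% of the list held 0 members for MEF, 2 for the intermediate, 6 for iPSC and 1 for ESC. Of all genes with an end peak, 4.38%, 5.67%, 8.76% and 4.7% were there, so the count of 6 of 66 in iPSC is near the share of all genes. In iPSC these were Rpl17, Rpl32, Rpl19, Rpl38, Rpl29 and Rpl6, named because they make up that count.

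**Figure D2:**
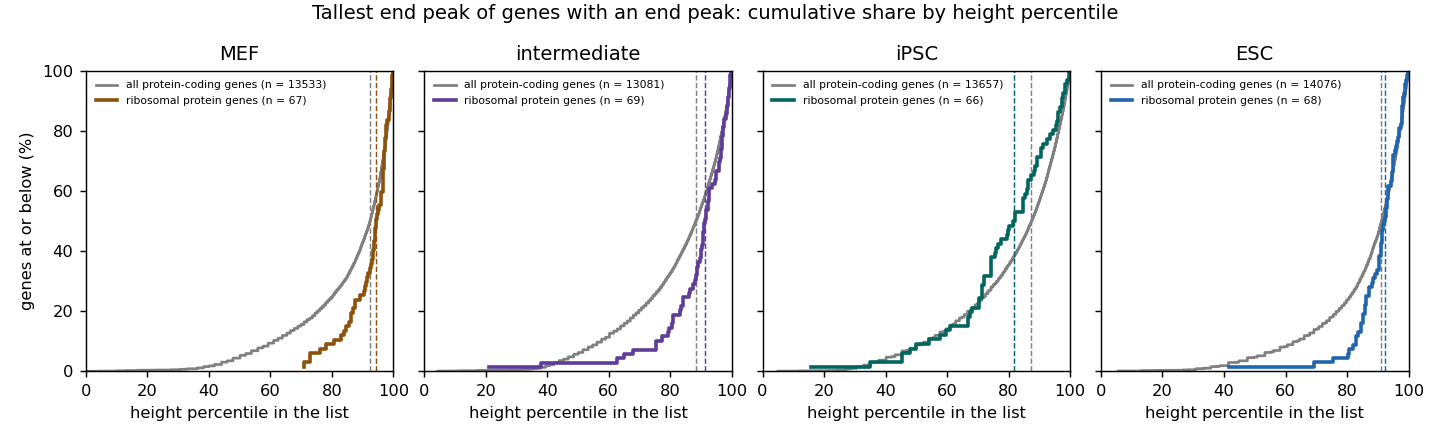
Cumulative share of genes (y axis, %) by height percentile of the tallest end peak (x axis) in each library, for ribosomal protein genes (colour) and all protein-coding genes with an end peak (grey); dashed lines are medians. The coloured curve lies right of the grey one over most of its length in MEF and the intermediate, and its median lies left of the grey one in iPSC (81.7 against 87.3).

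Members shifted most between lists when iPSC was one of the pair. From MEF to iPSC the median change was -10.1 points, with 57 of 65 members (87.7%) lower in iPSC, while all genes changed by a median of -3.62 and 68.4% were lower. From iPSC to ESC it was 9.66 points, with 54 of 66 (81.8%) higher in ESC, against 2.88 and 67.0% for all genes. Between the intermediate and iPSC 54 of 66 members (81.8%) were lower in iPSC, against 56.1% of genes (median -8.45, all genes -0.809). Pairs without iPSC moved less. The median change was -1.41 from MEF to the intermediate (all genes -2.29), with 68.7% of members and 69.9% of genes lower. From MEF to ESC it was -1.21 (all genes -0.37), with 62.7% of members and 56.1% of genes lower. From the intermediate to ESC it was 0.387 (all genes 1.91), with 55.9% of members and 66.5% of genes higher. These pairs share libraries and are not independent of each other. Of the 65 members with an end peak in all 4, iPSC held the lowest percentile for 47, the intermediate for 7, ESC for 6 and MEF for 5. For all genes iPSC was lowest in 47.6%. MEF held the highest for 32 members, ESC for 17, the intermediate for 13 and iPSC for 3, which were Rpl37, Rps27a and Rps23 (named for that count). The shares of all genes highest there were 43.1% in MEF, 24.1% in ESC, 14.1% in the intermediate and 18.7% in iPSC.

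The order among members was about as similar between lists as that of all genes where iPSC was left out. Spearman's rho of the percentile across members was 0.797 between MEF and the intermediate (n = 67), 0.798 between MEF and ESC (n = 67) and 0.793 between the intermediate and ESC (n = 68), against 0.748, 0.757 and 0.767 across all genes. With iPSC it was 0.711 for MEF (n = 65), 0.745 for the intermediate (n = 66) and 0.733 for ESC (n = 66), against 0.543, 0.606 and 0.713. These describe genes within 4 libraries, and each gene's window, sequence and length are the same in all of them. The median range of a member's percentile over the 4 lists was 12.5 points, against 11.7 for all genes.

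The 4 members with the highest mean percentile were Rpl15, Rpl37, Rps29 and Rpl34. Rpl15 encodes a large subunit protein (chr14:18267823-18270986), and its tallest end peak had a height of 324 (MEF), 441 (intermediate), 469 (iPSC) and 307 (ESC). It stood at percentiles 99.6, 99.9, 99.6 and 99.7. Rpl37, a zinc-binding protein of the large subunit (chr15:5116613-5119140), had heights of 274, 281, 503 and 294, at percentiles 99.3, 99.3, 99.6 and 99.6. These 2 genes were in the top 1% of every list. Rps29, a small zinc-binding protein of the small subunit (chr12:69157722-69159186), had 439, 258, 375 and 217, at percentiles 99.9, 99, 99.1 and 98.7. For Rpl34 (chr3:130726827-130730398) the heights were 234, 260, 290 and 248. All 4 stayed within 1.17 points over the 4 lists, iPSC included.

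The 5 members with the lowest mean percentile, of those with an end peak in all 4 lists, were Rpl19, Rpl32, Rpl35a, Rpl22 and Rpl38. Rpl19, a large subunit protein gene (chr11:98022003-98030493), had heights of 44 (MEF), 45 (intermediate), 36 (iPSC) and 105 (ESC), at percentiles 70.9, 65.0, 45.3 and 91.7. Its first listed start lies 4707 bp inside its record, counted from the upstream boundary. The tallest peaks within 1 kb of a listed start had heights of 80, 38, 45 and 59, at percentiles 88.4, 56.2, 57.6 and 79.2. Rpl22, whose loss in mice mainly affects T cell development (chr4:152324436-152334082), had heights of 77, 158, 55 and 27, at percentiles 87.7, 95.9, 67.5 and 41.5. In MEF, iPSC and ESC that peak lay at the far end of the gene, with its summit 7389 to 7424 bp from the listed start. At the start itself Rpl22 had heights of 187, 158, 73 and 119, at percentiles 97.8, 95.9, 78.5 and 93.4. Read at the start, ESC was thus not the low library for Rpl22.

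Rpl35a was low in all 4 (chr16:33056453-33060189), with heights of 46, 43, 56 and 53 and percentiles 72.8, 62.8, 68.1 and 75.6. Rpl32 (chr6:115805514-115808743) and Rpl38, whose loss in mice disturbs patterning of the axial skeleton (chr11:114667818-114672333), stood lowest in iPSC. Rpl32 had heights of 58, 66, 30 and 68, at percentiles 80.8, 79.7, 35.1 and 83.0. Rpl38 had 67, 61, 36 and 87, at percentiles 84.6, 77.3, 45.3 and 88.4. The largest ranges over the 4 lists were those of Rpl22 (54.4 points), Rpl32 (48.0), Rpl19 (46.3), Rpl29 (46.1) and Rpl38 (43.1). Rpl29 (chr9:106428889-106431568) had heights of 118, 78, 38 and 62, at percentiles 94.1, 84.2, 48.0 and 80.6. By end peak iPSC was the lowest list in Rpl32, Rpl19, Rpl29 and Rpl38, and ESC in Rpl22. At the listed start the lowest was the intermediate in Rpl19 and iPSC in Rpl22.

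**Figure D3:**
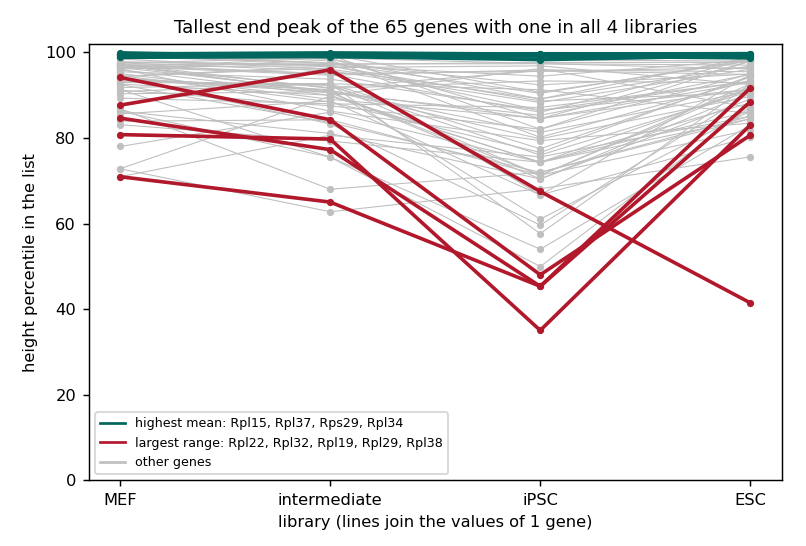
Height percentile of the tallest end peak (y axis) in the 4 libraries (x axis) for the 65 members with an end peak in all 4, each line 1 gene. The 4 highest genes (green) each range over at most 1.17 points, and 4 of the 5 genes with the largest range (red) dip at iPSC.

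Genes mutated in Diamond-Blackfan anaemia, an inherited failure of red cell production caused by ribosomal protein shortage, were read as a group of 10 members. An end peak was listed for 10, 10, 9 and 10 of them, Rpl11 in iPSC being the exception, and their median percentiles were 94.6, 88.9, 80.2 and 91.0. Rps19, the gene most often mutated in the disease, had heights of 227, 231, 90 and 187, at percentiles 98.7, 98.5, 84.5 and 97.9. Rps26 had 145, 215, 77 and 119 (percentiles 96.1, 98.2, 80.2 and 93.4). Rpl5, the partner of Rpl11 in the 5S particle, had 129, 97, 90 and 115 (95, 89.0, 84.5 and 93.0). In these 3 genes iPSC was the lowest list by percentile, and the other 3 lists stood close together at Rps19 and farther apart at Rps26 and Rpl5. Rps7, which also binds Mdm2, had 145, 85, 75 and 69 (96.1, 86.3, 79.4 and 83.4). Rps10, a further small subunit gene, had 118, 75, 47 and 98 (94.1, 83.3, 59.6 and 90.5). Rps24 had 115, 109, 80 and 100 (93.8, 91.1, 81.3 and 90.9), and Rpl26 had 89, 107, 90 and 103 (90.3, 90.8, 84.5 and 91.4). In Rps7, Rps10, Rps24 and Rpl26 iPSC was again the lowest list. Rpl35a, given above, was lowest in the intermediate. Of all genes with an end peak in every list, 47.6% were lowest in iPSC. In iPSC 0 of the 9 with an end peak were in the top 10% of the list, against 8 of 10 in MEF, 4 in the intermediate and 7 in ESC. All genes with an end peak had 43.1% there in iPSC, 57.1% in MEF, 45.4% in the intermediate and 55% in ESC.

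The subunits had close medians. Small subunit members had median percentiles of 95.2, 91.3, 81.7 and 92.9 and large subunit members 94.1, 91.2, 79.7 and 91.6. The shares in the top 10% of the list were 85.7%, 65.5%, 32.1% and 71.4% for the small subunit and 66.7%, 55%, 26.3% and 62.5% for the large, and the small subunit share was the higher one in each list. Members hosting small nucleolar RNAs, which guide modification of ribosomal RNA, had 94.7, 91.2, 84.5 and 93.0, and the other 43 members 94.4, 91.3, 80.2 and 91.4. In each of these 4 groups iPSC was the lowest list.

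Widths of the tallest end peaks were close to those of other open genes. Median width of the members was 850 bp in MEF (95% interval 771 to 880), 860 bp in the intermediate (800 to 950), 810 bp in iPSC (760 to 870) and 930.5 bp in ESC (851 to 981). All genes with an end peak had 811, 791, 820 and 891 bp, and all peaks of the lists 440, 471, 531 and 501 bp. The interval of the members excluded the gene median in the intermediate alone. The widest by mean were Rps19 (1341, 1640, 840 and 1790 bp), Rpl13a (1290, 1250, 1010 and 1161 bp), Rpl27a (1210, 1001, 1240 and 1170 bp), Rps29 (1451, 961, 1111 and 1031 bp) and Rps18 (1120, 1050, 721 and 1520 bp). Rpl13a had heights of 235, 226, 112 and 224. Rpl27a stood at percentiles 97.6, 97.3, 97.3 and 97.0, and Rps18 at 94.6, 88.4, 76.6 and 94.5. The Rps18 peaks of the intermediate and ESC lay at the far end, with summits 3850 and 4140 bp from the listed start. So did the Rpl13a peak in iPSC (4260 bp). Widths of these 2 genes therefore mix sites. At the listed start Rps18 had widths of 1120, 780, 721 and 1450 bp, and Rpl13a had 781 bp in iPSC. Counted over both ends, the median number of end peaks a gene was 3, 3, 2 and 3 in members and 3, 2, 2 and 2 in all genes. With adjoining peaks (sub-peaks) at most 10 bp apart joined, the median member stretch was 1300, 1350, 1040 and 1245 bp. That of all genes was 1360, 1230, 1160 and 1335 bp. The member intervals were 1210 to 1410, 1270 to 1470, 920 to 1090 and 1200 to 1300 bp. They held the gene median in MEF alone. Joined member stretches were wider than those of all genes in the intermediate and narrower in iPSC and ESC.

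The peaks lay at the start of the genes in most cases. Of members with a listed start and an end peak, the tallest end peak covered a listed start in 42 of 49 in MEF (85.7%), 42 of 50 in the intermediate (84.0%), 40 of 48 in iPSC (83.3%) and 41 of 49 in ESC (83.7%). All genes had 72.7%, 71.8%, 75.1% and 75.1%. The median summit was 69, 27, 45 and 58 bp upstream of the start in members, against 44, 45, 49 and 44 bp in all genes. Summits of 40 of 49, 40 of 50, 39 of 48 and 41 of 49 members lay within 250 bp of a start. These shares were 81.6%, 80.0%, 81.25% and 83.7%, against 68.0%, 67.4%, 69.7% and 69.7% of genes. Where an end peak existed in all 4 lists, the tallest ones shared at least 1 base in 58 of 65 members (89.2%, 79.4 to 94.7%) and in 81.5% of 11323 genes. The 7 members where they did not were Rpl22, Rpl13a, Rps15a, Rpl41, Rpl19, Rpl24 and Rps18. For these the ranks compare different peaks between lists.

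**Figure D4:**
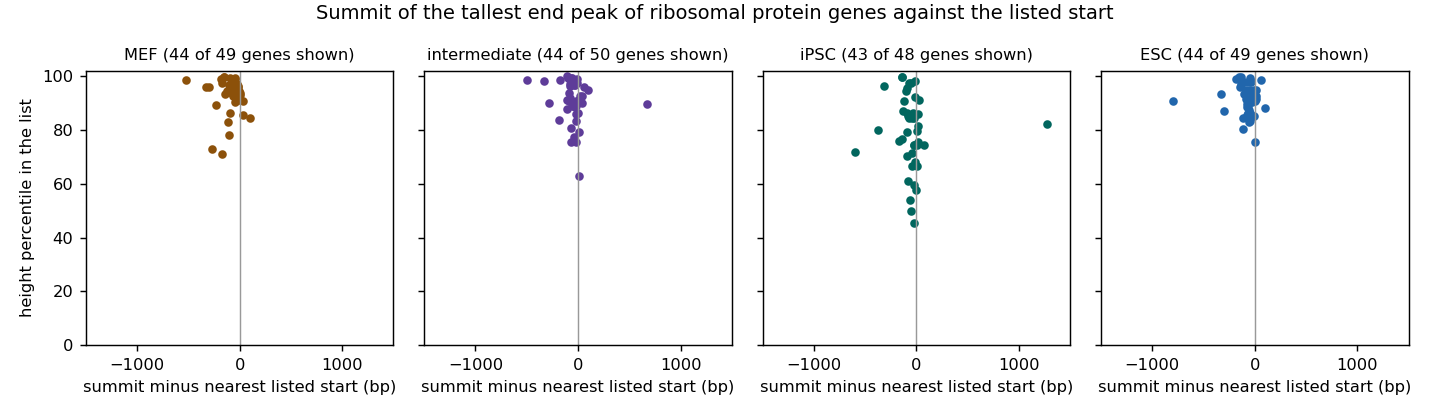
Distance of the summit of the tallest end peak from the nearest listed start (x axis, bp, negative is upstream) against its height percentile (y axis) in each library, for members with a listed start; genes beyond 1500 bp are left out, and each title gives how many are shown. Most summits lie just upstream of the start, and the points reach lower in iPSC.

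Member peaks with and without the ETS motif were set side by side. Motifs and GC content are those of the window at the listed start, while ranks are those of the tallest end peak. That peak covered a listed start in 42 of 49 members in MEF, 42 of 50 in the intermediate, 40 of 48 in iPSC and 41 of 49 in ESC. For the rest, sequence and rank belong to different places. Medians with CCGGAAG were 96.5 in MEF (n = 20), 90.8 in the intermediate (n = 21), 84.5 in iPSC (n = 19) and 94.0 in ESC (n = 20), and without it 93.8, 90.9, 75.5 and 90.9 (n = 29 in each). With a pyrimidine start they were 95, 91.8, 76.3 and 91.1, and without one 94.4, 90.7, 80.7 and 91.7. With the Sp1 motif they were 96.7, 92.3, 84.9 and 94.0, and without it 93.8, 89.8, 75.5 and 88.2. Sp1 is rich in G and C, and GC content itself moved with the rank: across members, Spearman's rho of GC and percentile was 0.40 in MEF (n = 49), 0.234 in the intermediate (n = 50), 0.483 in iPSC (n = 48) and 0.492 in ESC (n = 49). Across all genes it was 0.169, 0.117, 0.158 and 0.203. For the difference of iPSC minus ESC rho with GC was 0.341 over 48 members and -0.01 over all genes. The part of GC content in the iPSC placement was not tested.

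Other gene lists of the translation machinery showed how far the pattern reached. The 78 mitochondrial ribosomal protein genes had an end peak in 77, 76, 66 and 77 cases, with median percentiles of 92.0, 86.9, 84.6 and 91.2. Of the 75 with one in the other 3 lists, 9 (12.0%) lacked one in iPSC, against 3.05% of all such genes. These 9 were Mrpl20, Mrpl53, Mrpl3, Mrpl22, Mrpl27, Mrps18a, Mrps10, Mrpl21 and Mrpl11. Mrpl24, Mrpl4 and Mrps23 lacked one in other combinations. Ribosome biogenesis factors, of which Dkc1 is on X, had one in 22, 21, 21 and 22 of 22. Ubtf, the activator of RNA polymerase I, lacked it in the intermediate and iPSC. Where listed, the Ubtf end peak was low, with heights of 14 in MEF and 20 in ESC (percentiles 20.5 and 28.7). Medians of the biogenesis factors were 97.1, 92.1, 90.3 and 94.2. The 23 translation factors had one in every list, with medians of 97.8, 95.4, 92.0 and 96.7. Proteasome subunits, a constitutive complex outside translation, had 31, 29, 29 and 30 of 31, with medians of 94.9, 90.6, 86.2 and 93.8. Psma6 had an end peak in MEF alone and Psmb5 in MEF and ESC. In iPSC the medians of the ribosomal protein, mitochondrial ribosomal protein and proteasome lists were under the 87.3 of all genes. Those of biogenesis and translation factors were above it. The 95% intervals of the mitochondrial (78.9 to 91.0), proteasome (79.8 to 89.1) and biogenesis (85.0 to 96.2) lists held 87.3, so their side of it is unresolved. Only the intervals of the ribosomal protein genes (74.3 to 86.5) and translation factors (89.1 to 95.6) excluded it.

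**Figure D5:**
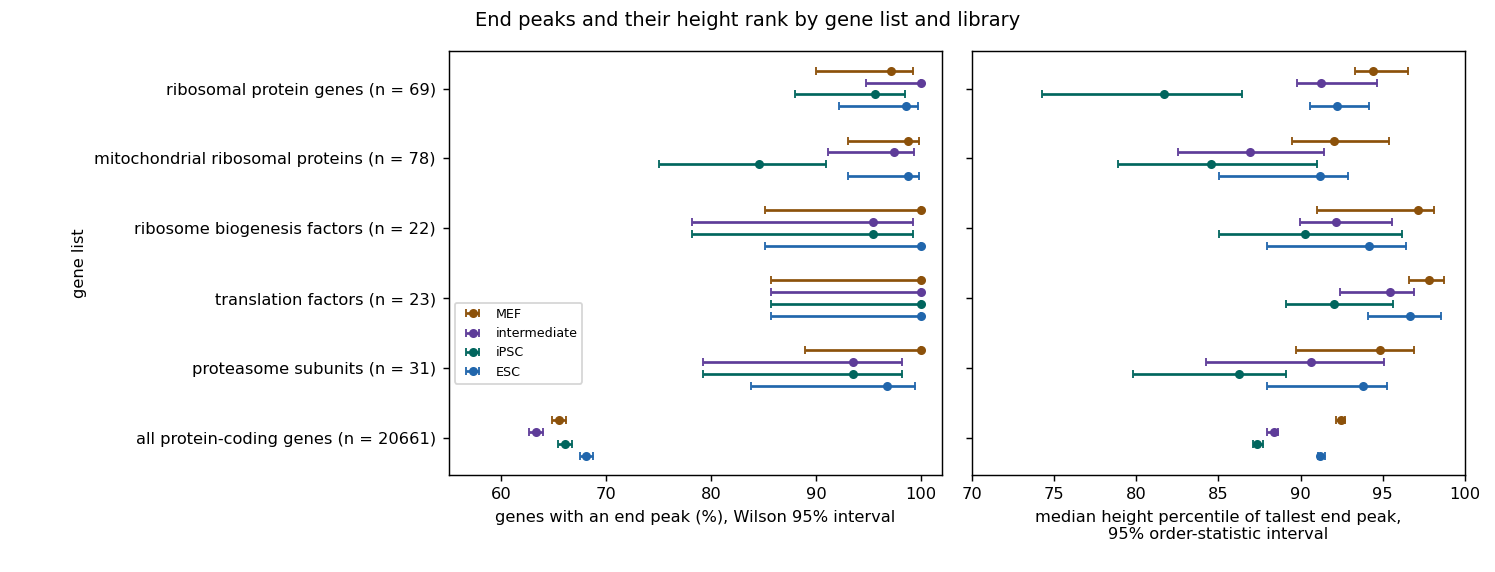
Share of genes with an end peak (left, %, Wilson 95% interval; the axis starts at 55%) and median height percentile of the tallest end peak (right, 95% order-statistic interval; the axis starts at 70) for 5 gene lists and all protein-coding genes in the 4 libraries. The ribosomal protein genes have the lowest iPSC median of the lists (81.7), and mitochondrial ribosomal protein genes the lowest iPSC share.

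Cytosolic ribosomal proteins whose symbols the naming rule does not take showed a like order. This list of 6 genes, among them Rplp0, Rplp1 and Rplp2 (the stalk proteins), Rpsa and Fau, had end peaks at all 6 in all 4 lists, with medians of 95, 90.5, 77.6 and 94.6. Rplp0 had heights of 248, 214, 92 and 168, Rplp1 104, 126, 62 and 103, and Rplp2 113, 91, 53 and 126. Rpsa had 212, 134, 113 and 143, and Fau, whose product is fused to a ubiquitin-like protein, had 148, 45, 79 and 71. In Rplp0, Rplp1, Rplp2 and Rpsa iPSC held the lowest percentile, and in Fau the intermediate did. The peaks at Fau have the same heights and widths as those at Mrpl49 on the same chromosome. They were counted for both genes and cannot be assigned to Fau alone.

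The 4 X-linked genes had lower median percentiles than the members in each list. Rpl39 had heights of 81, 54, 87 and 77, Rpl10 92, 126, 66 and 110, and Rpl36a 76, 134, 72 and 103. Rps4x had 50, 43 and 55 and no end peak in ESC. Medians of the X-linked genes, 4 in each list but 3 in ESC, were 88.0, 83.1, 76.5 and 91.4, with no interval for so few. Of the like-genes, Rpl22l1 (169, 237, 336 and 199) and Rpl36al (236, 255, 277 and 185) stood above percentile 97 in every list. Rpl3l, known as a muscle gene, had 224, 135, 81 and 163, Rps27l had 125, 90, 54 and 135, and Rpl7l1 had 63, 65, 53 and 60. Rpl10l, a testis gene, had none in MEF and the intermediate and 76 and 41 in iPSC and ESC, and Rpl39l had none in any list. A peak at such a gene can belong to a neighbour within 1 kb.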

How the data were processed

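ATAC-seq of 4 mouse libraries, 1 a group, was analysed from the deposited peak lists. Per the submitters' processing notes, CASAVA 1.8.2, Bowtie2, Picard, MACS 1.4.2-1 and mm10 were used, without roles or parameters. Per the file headers, each list gives start, end, summit position and height of a peak. The deposited height was taken as an unscaled signal, and how the authors computed it is not given in the sources used here. Members, gene lists, markers and motifs were chosen with earlier results of these data known. Genes, starts and promoter sequence came from RefSeq tables on GRCm38.p6; genes came from their annotated records and starts from the promoter table. Named genes were those without an end peak somewhere, the 5 highest, 5 lowest, 5 most variable and 5 widest, the Diamond-Blackfan and 5S genes, and whole small lists; of the other lists, those without an end peak somewhere. For the like-genes, 7 of 8 symbols matched. Some genes that this rule names are not reported here. Shares have Wilson and medians exact binomial order-statistic 95% intervals. Counting was tested on simulated data. Python 3.11.15, pandas 2.3.3, numpy 2.4.6, scipy 1.17.1 and matplotlib 3.10.9 were used.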

Additional observations from a re-analysis of the deposited data

How the results depend on the processing

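With 1 library a group, no replicate can be left out, and no paired analysis was possible because the result comes from no test. Of 170 values recomputed under 10 alternatives, 144 stayed within the interval of the reported value. The gene body with 1 kb on either side, and the difference between members and genes, were added after seeing the data. Share with an end peak: a 2.5 kb window gave 100% in MEF and ESC, as did the gene body; listed starts alone (50 members) gave 100% in MEF and ESC and 98% in all 4; members without a neighbouring gene end gave 100% in ESC. In the taller 50% of each list, shares fell to 87.0% in iPSC and 85.5% in all 4, with median percentiles of 88.8, 83.1, 69.0 and 84.9. Joining sub-peaks gave percentiles of 89.8, 84.6, 73.2 and 87.6 and widths of 1300, 1350, 1040 and 1245 bp. Lists of equal length gave 93.2 in MEF. The difference from all genes became 1.30 in the intermediate and reversed to -0.57 in ESC with listed starts alone, and became 4.46 in MEF without neighbours. In iPSC it stayed negative in all 10, from -3.03 (2.5 kb) to -9.78 (listed starts). Rps2 had a peak in all 4 lists with listed starts, 2.5 kb or the gene body, and in 0 of the taller 50%. Rpl17 had 0 at 500 bp or with 50% of the peak inside, and 1 in the taller 50%; Rpl22 had 0 at 500 bp. Depth is unknown, so a missing peak is only one that is not listed.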
